A study of Caenorhabditis elegans with 12 samples.

Results

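The genes described here were 10 *Caenorhabditis elegans* genes for enzymes that use the cofactor flavin adenine dinucleotide (FAD) to oxidise small molecules. They comprised the 5 flavin-containing monooxygenases *fmo-1* to *fmo-5*, the D-amino acid oxidase *daao-1*, the D-aspartate oxidases *ddo-1*, *ddo-2* and *ddo-3*, and the monoamine oxidase *amx-2*. Members were chosen by name, as the rows whose gene ID carries one of these symbols in the WBcel235 annotation, and they made up 10 of 46726 genes in the expression table. The rule for membership used no expression value, though the group itself was picked with earlier results of these data known. Whole animals of wild type (WT, the Bristol strain N2) were compared with *alh-6(lax105)* mutants by RNA-Seq. Both genotypes were sampled as L4 stage animals, the last larval stage, collected 48 hr after dropping, and as day 3 adults, collected at 120 hr. Each of the 4 groups had 3 libraries, 12 in all, and each library came from a pool of worms, so tissues were mixed and replicates measure the spread between pools. The mutant was 1 allele of *alh-6*, the gene for the mitochondrial enzyme of the second step of proline catabolism, and no further allele or rescue was sequenced in the libraries used here.

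A flavin-containing monooxygenase binds FAD, takes electrons from NADPH and puts 1 atom of molecular oxygen onto a nitrogen or sulfur of its substrate. In *C. elegans*, *fmo-2* is known as a target of the hypoxia factor HIF-1 whose activity extends lifespan, and *fmo-4* is known for survival of hypotonic stress. The D-amino acid and D-aspartate oxidases remove the amino group of D-amino acids and release hydrogen peroxide, with DAAO acting on neutral and basic substrates and the DDO enzymes on acidic ones. Monoamine oxidases also release hydrogen peroxide, from amines such as serotonin, and are not amino acid oxidases. All of these enzymes depend on FAD, the cofactor on which the study of *alh-6* centres.

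Levels are given as FPKM, fragments scaled to the length of the transcript and to the size of the library, so levels of different genes are compared per length. Genotypes and stages were compared with limma on log2(FPKM + 0.1), and a gene was called when its Benjamini-Hochberg adjusted p over all genes tested was below 0.05. The filter asked for 3 or more of the fitted libraries at an FPKM of 1 or above. On this scale the fold change of a weakly expressed gene is understated.

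The libraries held 19248229 to 23575173 reads on genes. The mutated gene *alh-6* was still transcribed, at 68.4 to 70.5 FPKM in WT and 60.6 to 62.6 in the mutant at L4, and 31.8 to 33.9 against 32.0 to 34.8 in day 3 adults, so its mRNA level does not check the genotype labels. Markers matched the stages, with major sperm protein (*msp*) genes summing to 7537 to 7957 FPKM in WT L4 stage animals and 6.54 to 16.6 in WT day 3 adults. Markers also differed between the genotypes at the same labelled stage. At L4, the 6 larval molt genes were all called higher in the mutant, with a summed level of 47.3 to 54.8 FPKM in WT and 113 to 145.4 in the mutant. All 8 oocyte and embryo genes were called lower (1032 to 1116 against 714 to 785 FPKM), as were 24 of the 29 *msp* genes tested of 31 listed (5549 to 6357.5 FPKM in the mutant), with 2 *msp* genes at 0 in all L4 libraries. Of 3 hypodermis genes, *dpy-7* (1.84) and *rol-6* (1.35) were called higher and the adult collagen gene *col-19* lower (-0.58), and their sum, mostly *col-19*, was 1373 to 1434.5 FPKM in WT and 920.3 to 1121 in the mutant. Of 4 intestine genes, *cpr-6* (0.64) and *ges-1* (0.32) were called higher (3562 to 4180 against 4274 to 5514 FPKM summed), and 2 of 6 vitellogenin genes were called lower (4696 to 5660.5 against 3168 to 4633 FPKM). At day 3, 5 of 6 vitellogenin genes (10873 to 13946 against 17655 to 17956 FPKM) and 3 of 3 muscle genes (45.2 to 61.6 against 113.7 to 124 FPKM) were called higher in the mutant. Of the 6 larval molt genes, 4 were tested at day 3 and 1, *noah-1*, was called lower (-1.02). The part of these differences in the results that follow was not tested.

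**Figure D1:**
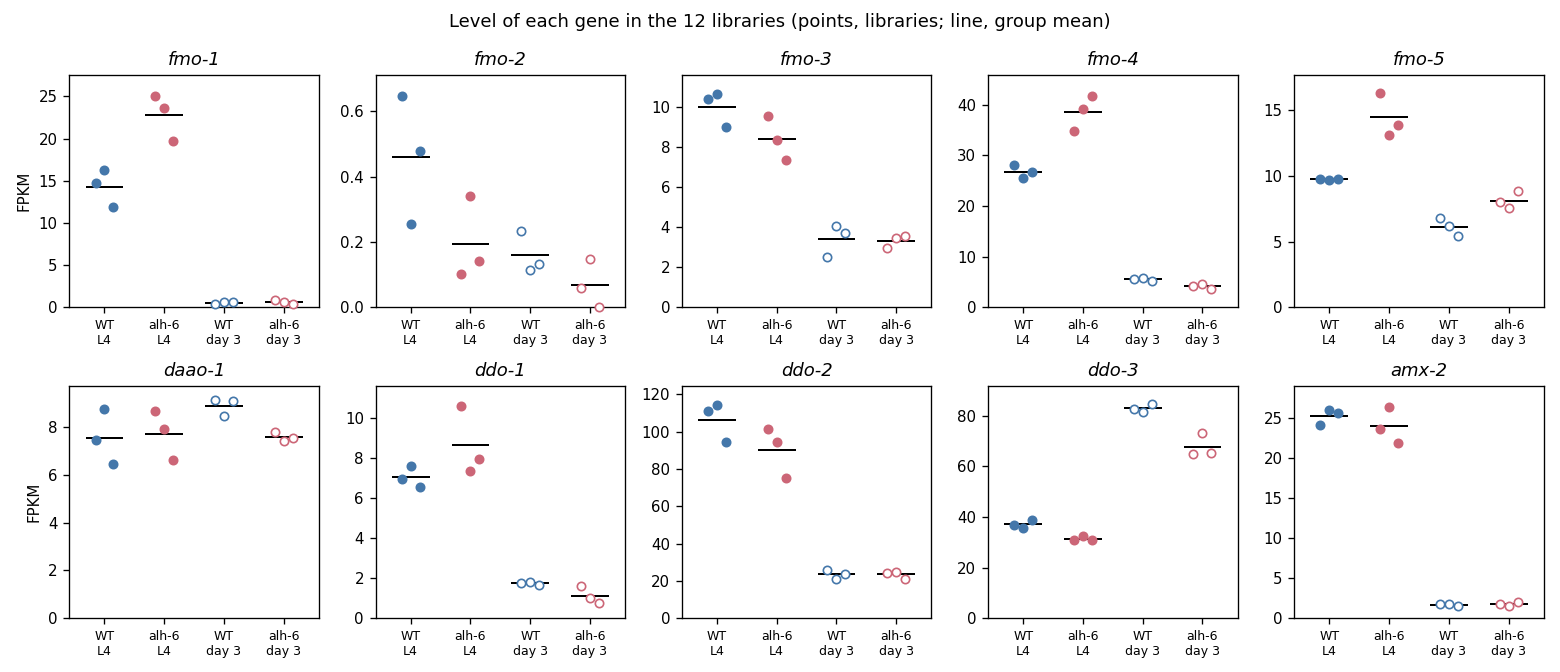
FPKM of the 10 genes in each of the 12 libraries, 1 panel per gene on a linear axis from 0 with its own scale, with points for the 3 libraries of each group (filled at L4, open in day 3 adults) and a line at the group mean. At L4, *fmo-1*, *fmo-4* and *fmo-5* were higher in every mutant library than in every WT library, and *ddo-3* was the 1 gene that was more than 2-fold more abundant in adults than at L4.

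In L4 stage animals, 3 of the 5 monooxygenase genes rose in the mutant, *fmo-1* by 1.59-fold, *fmo-5* by 1.47-fold and *fmo-4* by 1.44-fold, and the D-aspartate oxidase gene *ddo-3* fell. That made 4 of the 9 members tested, where 15.3% of the 13851 genes tested were called, 8.19% higher and 7.15% lower. None of the 4 reached 2-fold, as 3.33% of all genes did. The median log2 fold change of the 9 members was 0.033, and that of all genes was -0.035. In bulk libraries, fewer cells of a type and less RNA per cell cannot be told apart. In both genotypes *fmo-1*, *fmo-4* and *fmo-5* had lower levels in day 3 adults than at L4, and *ddo-3* had a higher one. The larval molt, oocyte and sperm markers also differed between the genotypes at L4. The part of developmental age in these 4 calls was not tested.

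*fmo-4* had the highest level of the monooxygenase genes at L4. It stands on the minus strand of chromosome V (WBcel235, chrV:13603276-13606701, WBGene00001479). Its FPKM was 28.0, 25.5 and 26.8 in the WT L4 libraries and 34.8, 39.2 and 41.8 in the mutant, on 989 to 1103 and 1400 to 1614 reads. The lowest mutant library was above the highest WT library. The log2 fold change was 0.52 (SE 0.0846, 95% confidence interval 0.33 to 0.72, limma adjusted p = 0.00406), and the gene was called in 14 of 14 alternative analyses.

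*fmo-5* also lies on the minus strand of chromosome V (chrV:899304-903665, WBGene00001480). The WT L4 libraries were close together at 9.78, 9.67 and 9.73 FPKM, and the mutant libraries were at 16.3, 13.1 and 13.9. Every mutant library was above every WT library. The log2 fold change was 0.56 (SE 0.106, interval 0.32 to 0.80, limma adjusted p = 0.00919), called in 14 of 14 alternatives.

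*fmo-1* and *fmo-2* are neighbours on the plus strand of chromosome IV (chrIV:10661857-10664404, WBGene00001476, and chrIV:10682524-10684367, WBGene00001477), separated by 18119 bases that hold 3 protein-coding genes. *fmo-1* was at 14.7, 16.3 and 11.9 FPKM in the WT L4 libraries and at 25.0, 23.6 and 19.7 in the mutant. The 2 sets of libraries did not overlap. The log2 fold change was 0.67 (SE 0.135, interval 0.37 to 0.98, limma adjusted p = 0.0114). The call was kept in 13 of 14 alternatives and lost when all 12 libraries shared 1 estimate of the spread (adjusted p = 0.0832).

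*fmo-2*, the family member known for the hypoxic response, was close to the limit of detection throughout. Its FPKM was 0.646, 0.257 and 0.479 in the WT L4 libraries, on 23, 9 and 16 reads. The mutant L4 libraries gave 0.101, 0.341 and 0.143, on 4, 11 and 5 reads, so the genotypes overlapped. The day 3 libraries of WT gave 0.233, 0.113 and 0.133 FPKM on 8, 4 and 5 reads, and the mutant 0.0608, 0.149 and 0 on 2, 5 and 0 reads. A count of 0 in that last library allows up to 3 reads, or 0.0881 FPKM. *fmo-2* passed the filter in no comparison and was not tested, and with a lower filter or none its L4 difference of -0.95 had an adjusted p between 0.238 and 0.320. With so few reads, these libraries neither show nor exclude a difference between genotypes.

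*fmo-3* on the plus strand of chromosome III (chrIII:10694681-10698864, WBGene00001478) was at 10.4, 10.7 and 9.03 FPKM in WT and 9.57, 8.37 and 7.37 in the mutant at L4. The ranges overlapped and the log2 difference of -0.25 was not called (adjusted p = 0.218). The summed FPKM of the 5 monooxygenase genes was 61.3 ± 2.98 (SD, n = 3) in WT and 84.4 ± 1.47 in the mutant, and *fmo-4* made 43.7% and 45.8% of it.

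**Figure D2:**
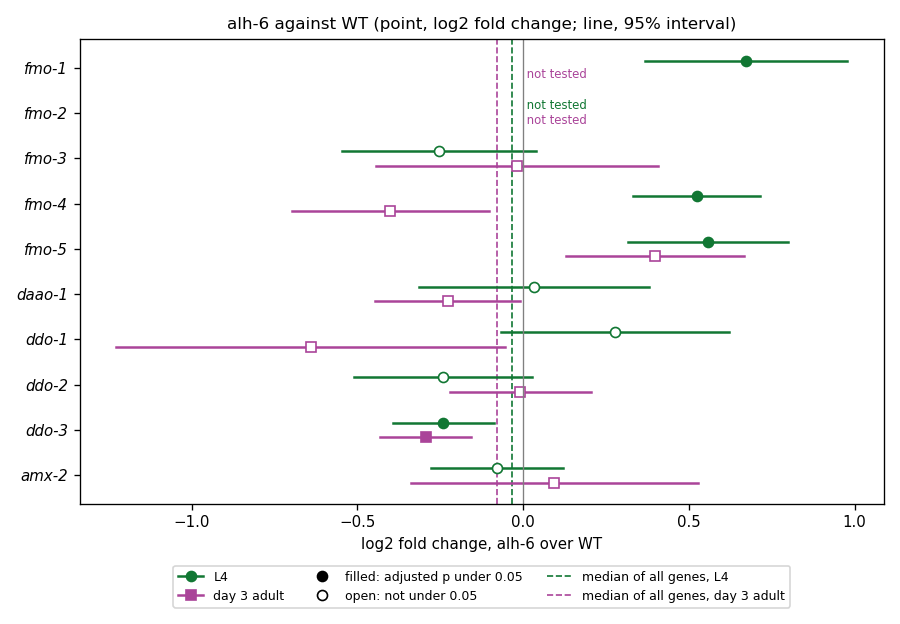
Log2 fold change of the mutant against WT for each member at L4 and in day 3 adults, with 95% confidence intervals from limma and dashed lines at the median of all genes. Filled points were called at an adjusted p below 0.05: *fmo-1*, *fmo-4*, *fmo-5* and *ddo-3* at L4, and *ddo-3* in day 3 adults. *fmo-4* lies at 0.52 at L4 and at -0.40 in day 3 adults.

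Among the amino acid oxidase genes, *ddo-3* was lower in the mutant at both stages and the others were not called. *ddo-3* lies on the plus strand of chromosome III (chrIII:6587864-6589398, WBGene00017648). At L4 its FPKM was 36.97, 35.6 and 38.7 in WT and 31.0, 32.4 and 30.8 in the mutant. At day 3 it was 82.8, 81.4 and 84.8 in WT and 64.9, 73.0 and 65.4 in the mutant. No mutant library reached the lowest WT library of its stage. The log2 fold change was -0.24 at L4 (SE 0.0671, interval -0.39 to -0.088, limma adjusted p = 0.0433) and -0.29 in day 3 adults (SE 0.0621, interval -0.43 to -0.16, adjusted p = 0.0219). These calls stood near the threshold: the L4 call was kept in 3 of 14 alternatives and in none of the 6 that left out a library (adjusted p 0.0580 to 0.142), and the day 3 call was kept in 8 of 14 and lost without any of the 3 WT libraries (0.0645 to 0.120). The gene shares 26 exon bases, 1.98% of its exons, with *F20H11.1* on the opposite strand, and whether the counting used strand is not given in the sources used here.

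*ddo-2*, on the minus strand of chromosome V (chrV:7433383-7435705, WBGene00017565), had the highest level of the 10 genes at L4. It was at 111, 114 and 94.2 FPKM in WT and 101.1, 94.7 and 75.4 in the mutant. These ranges overlapped, and the difference of -0.24 was not called (adjusted p = 0.204). At day 3 the genotypes were at 23.6 ± 2.43 and 23.5 ± 1.94 FPKM (SD, n = 3 each), a log2 difference of -0.0082 with an interval of -0.22 to 0.20 (adjusted p = 0.967). The length behind this gene's FPKM was 765 bases against 1668 annotated exon bases, so its level is higher by that ratio than with the annotated length.

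*ddo-1*, also on the minus strand of chromosome V (chrV:17774246-17777227, WBGene00008127), was at 6.92, 7.58 and 6.54 FPKM in WT and 10.5, 7.36 and 7.92 in the mutant at L4, and was not called (0.28, adjusted p = 0.248). Among day 3 libraries it was at 1.74, 1.79 and 1.68 FPKM in WT and 1.61, 0.996 and 0.776 in the mutant, on 34 to 36 and 15 to 30 reads, so 1 of the 3 mutant libraries was above 1 FPKM. The day 3 genotypes did not overlap, but the log2 difference of -0.64 (SE 0.266, interval -1.23 to -0.055) was not called (limma adjusted p = 0.157). *ddo-1* was called at day 3 in 1 of 14 alternatives, the fit without mutant day 3 replicate 1 (-0.91, limma adjusted p = 0.0447). In that fit it passed the filter through its WT libraries alone, which favours a lower value in the mutant.

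*daao-1*, on the plus strand of chromosome IV (chrIV:2614194-2617147, WBGene00022076), was at 7.46, 8.76 and 6.44 FPKM in WT and 8.66, 7.90 and 6.60 in the mutant at L4. The ranges overlapped, with a difference of 0.033 (interval -0.31 to 0.38, adjusted p = 0.903). Day 3 adults were at 9.13, 8.46 and 9.08 FPKM in WT and 7.80, 7.41 and 7.54 in the mutant, without overlap, and the difference of -0.23 was not called (adjusted p = 0.176).

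The monoamine oxidase gene *amx-2*, on the minus strand of chromosome I (chrI:12759587-12764960, WBGene00000138), was at 24.1, 26.1 and 25.6 FPKM in WT and 23.7, 26.4 and 21.8 in the mutant at L4. The genotypes overlapped, with a log2 difference of -0.078 (interval -0.28 to 0.12, adjusted p = 0.575). They overlapped again in day 3 adults, at 1.72, 1.73 and 1.51 FPKM in WT and 1.82, 1.55 and 1.97 in the mutant (0.094, interval -0.34 to 0.53, adjusted p = 0.787).

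In day 3 adults, *ddo-3* was the 1 member called of 8 tested, and 6.32% of the 10501 genes tested were called, 2.14% higher and 4.18% lower. No member reached 2-fold, as 0.819% of all genes did. The median log2 fold change was -0.12 for the 8 members and -0.080 for all genes. The split of all calls depended on scaling, with 225 higher and 439 lower as deposited and 287 higher and 153 lower after rescaling each library by the median ratio. *fmo-1* and *fmo-2* were below the filter at this stage. *fmo-1* was at 0.407, 0.592 and 0.601 FPKM in WT and 0.849, 0.650 and 0.359 in the mutant, on 14 to 32 reads, and the genotypes overlapped.

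*fmo-4* and *fmo-5* missed the threshold between the genotypes in day 3 adults, though their libraries did not overlap. *fmo-4* was lower in each mutant library, at 5.61, 5.77 and 5.15 FPKM in WT and 4.15, 4.66 and 3.69 in the mutant. The log2 difference was -0.40 (SE 0.135, interval -0.70 to -0.10, limma adjusted p = 0.0966), and the adjusted p ran from 0.049976 to 0.240 over the alternatives, with a call in 1 of 14. *fmo-5* was higher in each mutant library, at 6.79, 6.18 and 5.44 FPKM in WT and 7.97, 7.54 and 8.80 in the mutant. Its log2 difference was 0.40 (SE 0.122, interval 0.13 to 0.67, adjusted p = 0.0756), and it was called in 1 of 14 alternatives, limma-voom on the recovered reads (0.49, adjusted p = 0.0257). *fmo-3* was at 2.50, 4.08 and 3.71 FPKM in WT and 2.97, 3.45 and 3.56 in the mutant, with overlap (-0.017, interval -0.44 to 0.41, adjusted p = 0.965).

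The difference between the 2 genotype effects was tested directly as the interaction of genotype and stage. *fmo-4* was the 1 member called of 9 tested, and 7.38% of the 14497 genes tested were called, 4.01% lower and 3.37% higher (488 higher and 582 lower as deposited, 759 higher and 515 lower after rescaling). The effect of the mutation on *fmo-4* shifted downward between L4 and the adult stage (interaction -0.92 on the log2 scale, SE 0.145, interval -1.24 to -0.61, limma adjusted p = 0.00298). It was called in 19 of 19 alternatives, with values from -1.01 to -0.84 and adjusted p from 0.00115 to 0.0105. No member reached a 2-fold interaction, as 2.91% of all genes did, and the median was -0.16 for the 9 members, *fmo-1* included, and -0.028 for all genes.

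*ddo-1* had an interaction of nearly the same size, -0.92, with more than 2 times the standard error (0.311, interval -1.59 to -0.24), and was not called (adjusted p = 0.0950). It was called in 1 of 19 alternatives, the fit without mutant day 3 replicate 1 (-1.18, limma adjusted p = 0.0154), and the adjusted p ran up to 0.201. The mutant day 3 libraries left in that fit held 19 and 15 reads of *ddo-1*. The remaining 7 members tested lay between -0.54 for *fmo-1* and 0.24 for *fmo-3*, with adjusted p of 0.405 to 0.769. *fmo-1* entered this fit through its L4 libraries alone. Its interaction therefore rests on day 3 levels below the filter, at 0.359 to 0.849 FPKM. For *fmo-5* and *ddo-3*, whose genotype differences had the same sign at both stages, the interactions were -0.16 (interval -0.50 to 0.18) and -0.054 (interval -0.23 to 0.13).

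From L4 to day 3 adult, 6 of the 9 members tested fell in both genotypes, *ddo-3* rose and *daao-1* was not called. *fmo-1* passed the filter through its L4 libraries alone, so it had to be lower in day 3 adults, and it is described by its levels. This was a stage of wide change: 89% of the 14497 genes tested were called in WT and 89.7% in the mutant, 51.8% and 53.2% lower and 37.2% and 36.4% higher, so the members' count of 8 of 9, *fmo-1* included, stood near the background in each genotype. At least 2-fold changes were seen for 7 of the 9 members in each genotype, *fmo-1* included, and for 64.2% and 65.9% of all genes. The median change was -1.95 for the members in WT and -1.93 in the mutant, again with *fmo-1* included, and -0.52 and -0.61 for all genes. Rescaling by the median ratio moved the median of all genes to -0.84 and -0.86, so stage changes are best read relative to that of all genes.

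**Figure D3:**
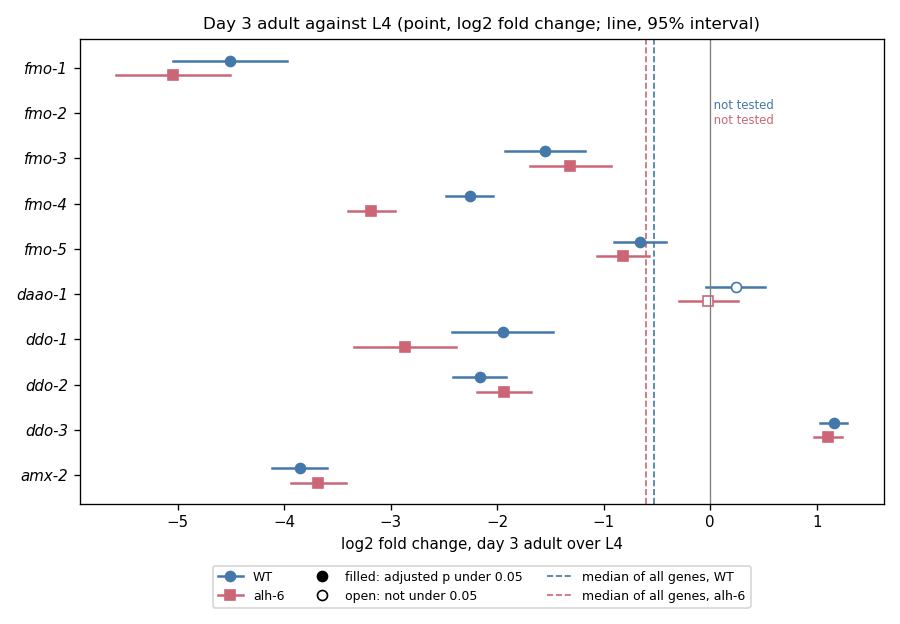
Log2 fold change from L4 to day 3 adult for each member in WT and in *alh-6* mutants, with 95% confidence intervals from limma and dashed lines at the median of all genes in each genotype. Apart from *fmo-1*, *amx-2* lies farthest below the lines, *fmo-5* lies near them, and *ddo-3* and *daao-1* lie above. *fmo-1* is drawn but passed the filter through its L4 libraries alone, so it had to lie low and its place is not a result.

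*fmo-1* was at 11.9 to 25.0 FPKM in the 6 L4 libraries and at 0.359 to 0.849 in the 6 day 3 libraries. The difference was -4.51 in WT and -5.05 in the mutant on the log2(FPKM + 0.1) scale. With a pseudocount of 1 it was -3.31 and -3.88, so its size rests on the pseudocount. *amx-2* fell by 14.5-fold in WT (-3.86, SE 0.119, adjusted p = 5.34e-12) and 12.8-fold in the mutant, and with a pseudocount of 1 the WT value was -3.31, level with that of *fmo-1*. The 6 L4 libraries of *amx-2* were at 21.8 FPKM or above and the 6 day 3 libraries at 1.97 or below.

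*fmo-4* fell by 4.79-fold in WT (-2.26, SE 0.103) and 9.09-fold in the mutant (-3.18), the pair of changes whose difference is the interaction above. *ddo-2* fell by 4.49-fold in WT and 3.82-fold in the mutant, *ddo-1* by 3.86-fold and 7.30-fold, and *fmo-3* by 2.92-fold and 2.48-fold. The highest adjusted p of these 8 changes was 7.89e-06. *fmo-5* fell by 1.58-fold in WT (-0.66, adjusted p = 8.43e-05) and 1.77-fold in the mutant (-0.82), which is -0.14 and -0.21 relative to the median of all genes.

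*ddo-3* was the 1 member that rose, 2.23-fold in WT (1.16, SE 0.0590, limma adjusted p = 4.53e-10) and 2.15-fold in the mutant (1.11). Relative to the median of all genes its changes were 1.68 and 1.71. *daao-1* changed by 0.24 in WT (interval -0.035 to 0.52, adjusted p = 0.0895) and by -0.017 in the mutant (interval -0.29 to 0.26), or by 0.77 and 0.59 relative to that median. After rescaling its value in WT turned to -0.083, and without WT L4 replicate 2 it was 0.35 and was called (adjusted p = 0.0228).

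The share of each gene in the summed FPKM of its class differed between the stages. Among the D-amino acid oxidase genes, *ddo-2* made 67.2% of the summed FPKM in WT L4 stage animals and 20.1% in WT day 3 adults, while *ddo-3* went from 23.6% to 70.8%. The mutant moved likewise, with *ddo-2* from 65.3% to 23.5% and *ddo-3* from 22.9% to 67.8%. The ratio of *ddo-3* to *ddo-2* FPKM was 0.352 ± 0.0519 in WT and 0.352 ± 0.0524 in the mutant at L4, and 3.54 ± 0.335 and 2.90 ± 0.203 in day 3 adults (SD, n = 3 each). With the annotated exon lengths, an alternative chosen after seeing the data, the 4 ratios were 0.768, 0.768, 7.71 and 6.31, on the same sides of 1. At those lengths the *ddo-2* share at L4 was lower, 48.9% in WT and 46.8% in the mutant, against 37.3% and 35.8% for *ddo-3*. The *ddo-3* share in day 3 adults was then 79.6% in WT and 77.8% in the mutant.

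Among the monooxygenase genes, the sum dropped from 61.3 ± 2.98 FPKM at L4 to 15.8 ± 0.869 in WT day 3 adults and from 84.4 ± 1.47 to 16.3 ± 0.246 in the mutant (SD, n = 3 each). The share of *fmo-1* went from 23.2% to 3.38% in WT and from 26.9% to 3.81% in the mutant. *fmo-5* had a larger share in day 3 adults than at L4, 38.9% in WT and 49.8% in the mutant, from 15.9% and 17.1% at L4. *fmo-4* held 35.0% in WT and 25.6% in mutant day 3 adults. These shares are descriptions and were not tested.

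**Figure D4:**
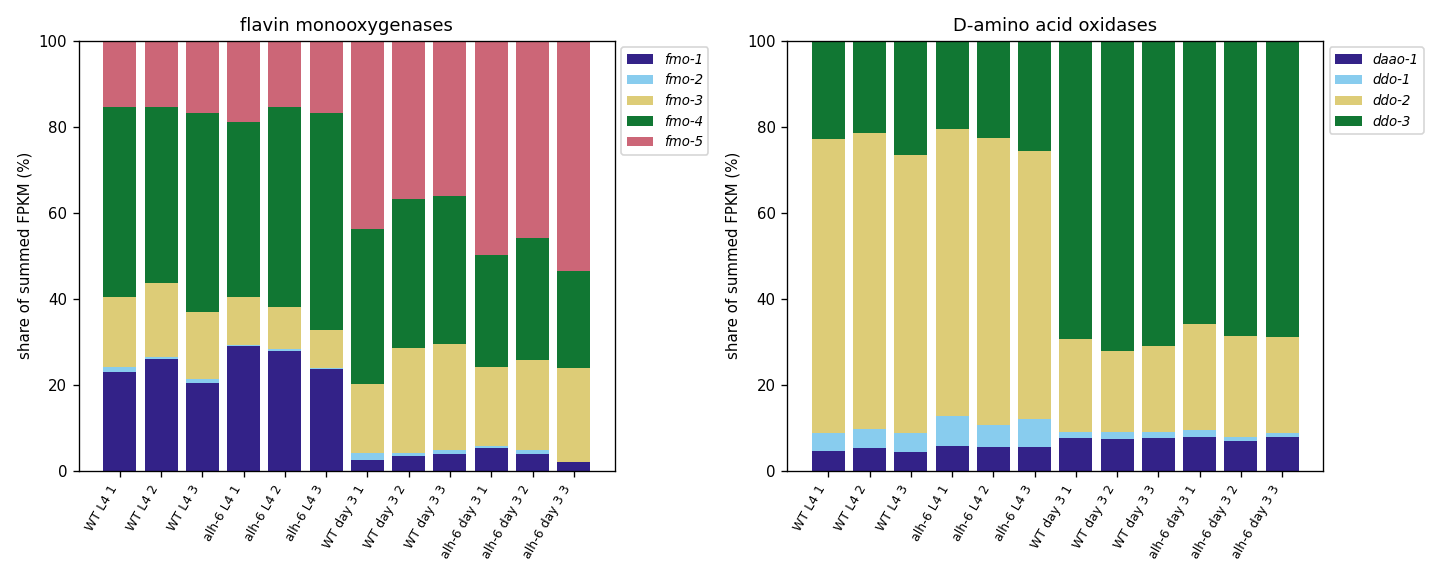
Share of the summed FPKM of each class that each gene made, with 1 stacked bar for each of the 12 libraries, for the 5 monooxygenase genes and for the 4 D-amino acid and D-aspartate oxidase genes. *ddo-2* has the largest share of its class at L4 (67.2% in WT) and *ddo-3* in day 3 adults (70.8% in WT), and the share of *fmo-1* shrinks from a mean of 23.2% to 3.38% in WT.

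The order of the levels followed the same shifts. In WT L4 stage animals the mean FPKM was 106.4 for *ddo-2*, 37.1 for *ddo-3*, 26.8 for *fmo-4*, 25.2 for *amx-2*, 14.3 for *fmo-1*, 10.04 for *fmo-3*, 9.73 for *fmo-5*, 7.55 for *daao-1*, 7.01 for *ddo-1* and 0.461 for *fmo-2*. Neighbours whose libraries overlapped were *fmo-4* and *amx-2*, *fmo-3* and *fmo-5*, and *daao-1* and *ddo-1*. In the mutant at L4, *fmo-4* at 38.6 FPKM stood above *ddo-3* at 31.4, without overlap. With the annotated exon lengths of all members, mean levels there were 41.5 for *ddo-2*, 35.4 for *fmo-4* and 31.4 for *ddo-3*, and neighbours overlapped.

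In WT day 3 adults *ddo-3* led at 83.0 FPKM, followed by *ddo-2* at 23.6, *daao-1* at 8.89, *fmo-5* at 6.14, *fmo-4* at 5.51, *fmo-3* at 3.43, *ddo-1* at 1.74 and *amx-2* at 1.65. *fmo-1* and *fmo-2* came last at 0.533 and 0.160 FPKM. The overlapping neighbours were *fmo-5* and *fmo-4*, and *ddo-1* and *amx-2*. In the mutant *fmo-5* at 8.10 FPKM and *daao-1* at 7.58 overlapped behind *ddo-3* and *ddo-2*, and both were above *fmo-4* at 4.17.

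For the 4 members called between genotypes, the genes with the most similar profile were sought by Pearson correlation of log2(FPKM + 0.1) over the 12 libraries among 14497 genes. The libraries share stage and genotype, so these values describe a common stage change and carry no test. *fmo-1* was closest to *C14H10.3*, *mrp-3* and *unc-13* (r = 0.999, 0.998 and 0.998), and *fmo-4* to *acn-1*, *egl-30* and *F30H5.3* (0.998, 0.997 and 0.997). *fmo-5* had looser neighbours in *hpo-36*, *Y39A1A.9* and *acox-3* (0.968, 0.967 and 0.967). *ddo-3*, which rose with stage, was closest to *T24H10.1*, *usp-4* and *mspn-1* (0.996, 0.995 and 0.995).

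Genes that act around these enzymes were described from lists chosen by function. Of 9 regulators and co-targets of the HIF-1 and NHR-49 pathways known for *fmo-2*, all tested, 1 rose and 1 fell in the mutant at L4, and the remaining 7 were not called. The riser was *cysl-2*, a cysteine synthase family gene induced through HIF-1, from 18.5 to 31.4 FPKM (0.76, SE 0.110, limma adjusted p = 0.00249). The gene that fell was *acs-2*, an acyl-CoA synthetase gene activated by NHR-49, from 51.3 to 26.9 FPKM (-0.93, SE 0.101, adjusted p = 0.000584). At day 3 *cysl-2* was the 1 gene of the list called, higher at 44.3 against 33.6 FPKM (0.40, adjusted p = 0.0110).

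None of the 4 genes of riboflavin uptake and FAD synthesis (*rft-1*, *rft-2*, *rfk-1* and *flad-1*) was called between genotypes at either stage, with median log2 differences of 0.016 at L4 and -0.19 in day 3 adults. Of 6 catalase and peroxiredoxin genes, which remove hydrogen peroxide, none was called at L4 and 1 rose in day 3 adults, the peroxisomal catalase gene *ctl-2*, from 23.7 to 29.3 FPKM (0.30, SE 0.0710, limma adjusted p = 0.0332). Of 4 amine oxidase relatives, 3 were tested at L4 and 1 rose, *amx-3*, from 7.62 to 10.1 FPKM (0.41, SE 0.113, adjusted p = 0.0427), and none of the 4 was called in day 3 adults. Of 7 genes of biogenic amine synthesis and loading, 5 were tested at L4, where 1 rose and 2 fell, and 4 in day 3 adults, where none was called. The largest of these was the fall of *tbh-1*, the tyramine beta-hydroxylase gene of octopamine synthesis, from 17.7 to 12.0 FPKM (-0.57, SE 0.130, adjusted p = 0.0194).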

How the data were processed

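Total RNA of whole worms was sequenced and processed by a service provider. Per the labels and the submitters' processing notes, CASAVA 1.8, TopHat2 2.0.12 with Bowtie2 2.2.3, HTSeq 0.6.1 and DESeq 1.18.0 were used on build ce11, the assembly also named WBcel235. Strand and multi-mapped reads are not given in the sources used here. The deposited values are FPKM per gene and library. The authors also deposited normalised mean read signals per group, which served only to recover whole reads from the FPKM (100% of values within 0.05 of a whole number), and their own log2 fold changes and p-values, which were not used.

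log2(FPKM + 0.1) was fitted with limma 3.58.1 in R 4.3.3 (lmFit, eBayes with trend and robust), keeping genes where 3 or more of the fitted libraries reached an FPKM of 1. Each genotype comparison used the 6 libraries of its stage, and the stage changes and the interaction used all 12. The code was tested on simulated data. Adjusted p-values are Benjamini-Hochberg values over all genes tested. The spread within each group exceeded sampling noise, and counts of 0 cover counting error only. Alternatives were other pseudocounts (1 and 0.01), a filter at 0.1 or none, rescaling by the median ratio, a replicate block, limma-voom on the recovered reads, 1 fit of all 12 libraries, and leaving out each library.

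All 10 members are named. From each functional list, the counts and the called gene with the largest change in each genotype comparison are given, and for called members the 3 most correlated genes. Members and lists were chosen with earlier results of these data known. Symbols came from the WBcel235 annotation, release 115. No sequence is printed.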

Additional observations from a re-analysis of the deposited data

Results flagged for a closer look

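The effect of the mutation on *fmo-4* differed between stages by the interaction test (-0.92 on the log2 scale, SE 0.145, limma adjusted p = 0.00298). All 3 mutant libraries were above all 3 WT libraries at L4 and below them in day 3 adults, on 989 to 1614 reads per library at L4 and 139 to 226 in day 3 adults. The day 3 difference by itself was not called (-0.40, limma adjusted p = 0.0966). The larval molt markers, which fall from L4 to day 3 adult, were also higher in the mutant at L4 (47.3 to 54.8 against 113 to 145.4 FPKM summed). In day 3 adults their sum was lower in the mutant, without overlap (9.924 to 10.223 against 6.9732 to 9.0008 FPKM). Of 4 molt genes tested there, *noah-1* alone was called, lower (-1.02, limma adjusted p = 0.0254), and *mlt-10* lay slightly the other way (0.026). The interaction of the molt markers was called lower for 6 of 6 genes. The part of these marker differences in the *fmo-4* result was not tested.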

How the results depend on the processing

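Of 764 alternative values of single members, 721 kept their direction and side of the threshold, 18 lost the call, 7 gained it and 18 changed sign, none of these called. The total includes stage changes refitted without a library of the other genotype, where the fold change itself could not move, so it is no measure of stability. Among the gains was *fmo-2* from L4 to day 3 adult in WT, not tested at an FPKM of 1 and called with the filter at 0.1 (-1.07, adjusted p = 0.0401), but not with no filter (0.0540). The members called at L4 were 4, and 3 in each analysis without 1 library. The count was also 3 with no filter, with the filter at 0.1, after rescaling, with limma-voom and with all 12 libraries in 1 fit. It stayed at 4 with the other pseudocounts, and with the replicate block, where *ddo-2* was called and *ddo-3* was not. In day 3 adults the count of 1 became 0 with no filter, 0 after rescaling, 0 with the replicate block, 2 with limma-voom, 2 with all 12 libraries in 1 fit, and 0 to 2 without 1 library (0 without any WT library, 2 without mutant replicate 1). The interaction count of 1 became 1 to 2 without 1 library, and that of WT from L4 to day 3 adult ran from 8 to 9. All genes called at L4 went from 2124 to 1393 with no filter and to 1347 to 1750 without 1 library (1347, 1395 and 1401 without WT L4 replicates 1, 2 and 3). In day 3 adults 664 became 243 with no filter, 440 after rescaling, 428 with the replicate block and 147 to 1233 without 1 library (211, 304 and 147 without WT day 3 replicates 1, 2 and 3, and 278 and 1233 without mutant day 3 replicates 2 and 3), and the interaction's 1070 became 1649 with a pseudocount of 1 and 695 to 1051 without 1 library (695 without WT L4 replicate 3). The cause was not tested.

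The sign changed for *fmo-3* in day 3 adults (0.058 rescaled, 0.055 with limma-voom, -0.22 to 0.12 without 1 library), *ddo-2* in day 3 adults (0.069 rescaled, 0.070 with limma-voom, -0.088 to 0.061 without 1 library), *daao-1* at L4 (-0.075 to 0.14 without 1 library), *daao-1* from L4 to day 3 adult in WT (-0.083 rescaled) and in the mutant (0.089 with limma-voom, -0.12 to 0.069 without 1 library), and the *ddo-3* interaction (0.0082 rescaled, 0.020 with limma-voom).

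Deviations of same-numbered libraries from their group means had correlations of 0.139, -0.0241 and 0.375 at L4, and 0.00415, -0.0778 and -0.16 in day 3 adults. At L4, WT replicate 2 and mutant replicate 1 reached 0.374. With 3 libraries centred in each group, these values cannot settle whether the numbers pair samples. With the replicate block, *ddo-2* at L4 was called (adjusted p = 0.0357), and *ddo-3* lost its calls at L4 (0.0518) and in day 3 adults (0.0539), and no other call of a member changed. *fmo-2* throughout, and *fmo-1* and *ddo-1* in day 3 adults, had 0 to 36 reads per library.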
